A study of Homo sapiens with 16 samples.

Results

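IMR32 cells, a human neuroblastoma line of wild-type genotype per the labels, were exposed for 24 h to 1.25 µM indisulam together with 4 µM alectinib, and their transcripts were compared with those of cells in DMSO, the vehicle. The 4 libraries of the combination and the 4 of DMSO were taken by their titles from a series of 16, in which 4 libraries each had indisulam or alectinib alone at the same doses and time. All groups shared the line, the medium and the duration, and no genetic change was made. Of the 58735 genes in the count table, 22433 passed the expression filter and were tested. The libraries are numbered within a group, but the labels leave unsaid whether each was its own culture. The p-values weigh differences between groups against the spread of libraries within groups, and part of that spread may be only technical.

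Indisulam is a sulfonamide that acts as a molecular glue: it brings the splicing factor RBM39 to DCAF15, the substrate receptor of a cullin 4 ubiquitin ligase, and RBM39 is then degraded. Alectinib is an inhibitor of ALK, a receptor tyrosine kinase of developing sympathetic neurons that drives a subset of neuroblastomas. The title of the study describes alectinib as having further targets and as acting with RBM39 degraders on RNA splicing. Cells answer failing RNA or protein synthesis through a few well-known programmes, among them the p53 response, which halts the cycle, the heat shock response to misfolded protein, and the unfolded protein response of the endoplasmic reticulum (ER). The table holds 1 count per gene, so splicing itself was not measured, and in bulk RNA fewer cells of a type and less RNA per cell cannot be told apart.

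Depth ranged from 56693607 to 58756241 counts per library in DMSO and from 55080768 to 61137362 in the combination, and neither group held a library that lay among those of another treatment on the first 2 principal components (44.1% and 15.9% of the variance). The share of counts from mitochondrially encoded genes was 5.38% ± 0.26 in DMSO and 6.61% ± 0.13 in the combination (SD, n = 4), with no overlap (difference 1.23 percentage points, exact two-sided permutation p = 0.0286, the smallest that 4 against 4 allows). Markers of sympathetic neuroblastoma cells were present in both groups, with summed levels of 4620 to 5077 counts per 1000000 counts (CPM) in DMSO and 2766 to 3314 in the combination. With the markers that failed the filter counted in, those of epithelial cells summed to at most 0.868 CPM, those of blood cells to at most 2.05 CPM and those of endothelial cells to at most 0.889 CPM in any of these 8 libraries. The sum of the blood markers was between 0.360 and 0.905 CPM in DMSO and between 1.31 and 2.05 CPM in the combination, and CD3E and HBB had no count in the series. Those of fibroblasts summed to 33.9 to 37.9 CPM in DMSO and 15.3 to 17.9 in the combination, and those of Schwann cells to 3.72 to 6.41 and 10.2 to 12.3 CPM. Of the Schwann cell markers, SOX10 and ERBB3 passed as higher and S100B did not pass. The part of these markers in the results was not tested.

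The combination changed the level of most expressed genes. In edgeR's quasi-likelihood test with Benjamini-Hochberg adjustment over the 22433 genes, 6657 were higher (29.7%) and 6870 lower (30.6%) at an adjusted p under 0.05. At least 2-fold differences were found for 2630 higher (11.7%) and 2515 lower genes (11.2%), and at least 4-fold differences for 976 and 408. Over all tested genes large rises were thus more frequent than large falls: 375 genes passed a log2 change of 3 and 57 passed -3. Among protein-coding genes alone the balance at 2-fold was the reverse, with 1118 higher and 1886 lower. The median over all tested genes was 0.01 on the log2 scale. The list counts below are to be read beside 29.7% higher and 30.6% lower among all tested genes. Among the 14728 protein-coding genes alone these shares were 29.98% and 39.2%. The CPM ranges of the groups did not overlap for 11832 genes (52.7%). When at least 1 CPM in at least 4 libraries was required, 1413 genes were at least 2-fold higher and 1691 lower. Many of the large rises were thus in genes of very low level.

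**Figure D1:**
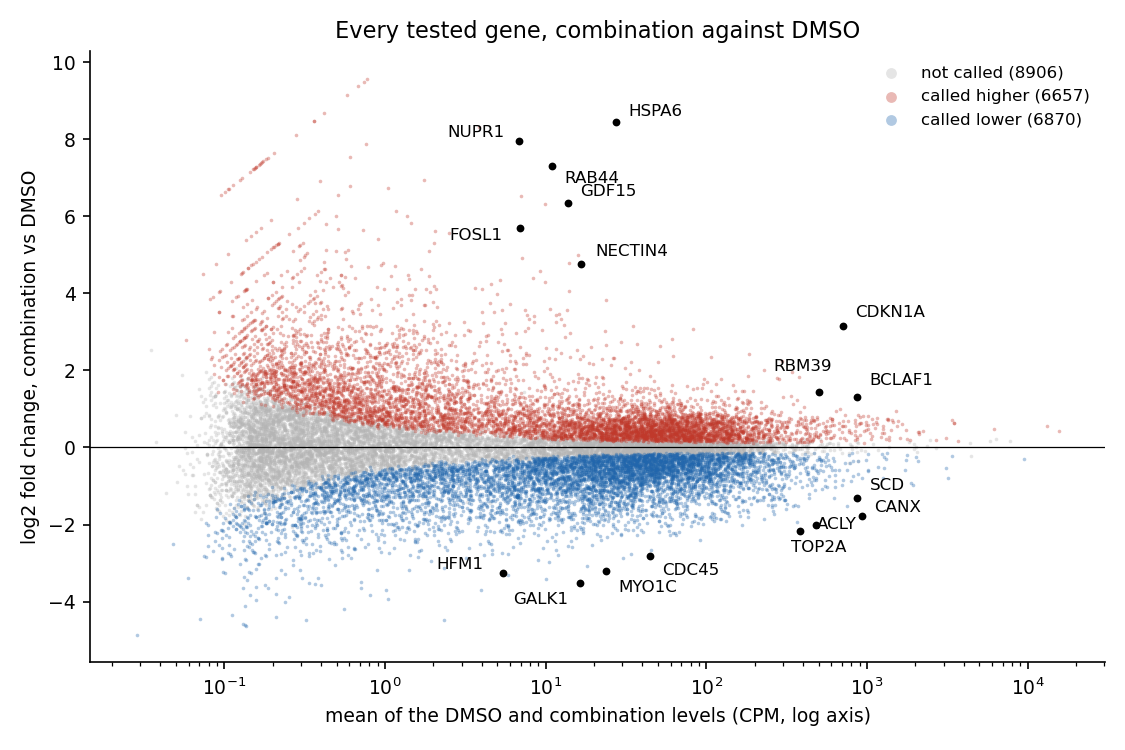
Log2 fold change of the combination against DMSO (vertical axis) for each of the 22433 tested genes against its mean level in the 2 groups in CPM (horizontal log axis). Red points are the 6657 genes called higher, blue the 6870 called lower and grey those not called; a few described genes are named, and HSPA6 lies highest of these at 8.44.

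Transcripts of the drug targets and their adaptors went both ways. RBM39 (ENSG00000131051), whose protein indisulam removes, was counted at 253, 269, 297 and 265 CPM in DMSO replicates 1 to 4 and at 729, 723, 787 and 697 CPM in the combination. All 4 treated libraries lay above all DMSO libraries, and RBM39 rose by 1.44 ± 0.06 (SE) on the log2 scale (adjusted p = 4.07e-15). Its gene lies on the minus strand of chromosome 20 at 35701347 to 35742312 in GRCh38, the build of all positions given here, and its protein was not measured. ALK (ENSG00000171094, chromosome 2, 29192774 to 29921566, minus strand) stood at 249, 254, 234 and 243 CPM in DMSO and at 118, 126, 107 and 124 CPM in the combination, again without overlap, and fell by 1.05 ± 0.07 on the log2 scale. Of 18 tested members of this list, 7 rose and 7 fell, beside shares of 29.7% and 30.6% among all genes, with a median of 0.02. The ligase genes went both ways. RBX1, the RING subunit of the ligase, and DDA1, a cofactor of its adaptor, rose (0.66 ± 0.08 and 0.58 ± 0.08), DDB1, the adaptor, and CUL4A, the scaffold, fell (-0.61 ± 0.06 and -0.45 ± 0.05), and DCAF15 (0.00 ± 0.09, adjusted p = 0.969) and CUL4B (-0.02 ± 0.07) did not pass. Among kinases that phosphorylate SR splicing proteins, CLK1, CLK3 and CLK4 rose by 0.65, 1.23 and 0.85, SRPK1 fell by 0.74, and CLK2 (0.03) and SRPK2 (0.03) did not pass, although both passed as higher under upper-quartile scaling. SRPK3, a member of the same kinase family with low counts, had 5.64, 2.62, 2.40 and 4.18 CPM in DMSO and 0.790, 1.15, 0.233 and 0.384 CPM in the combination. It had the largest change of the list, -2.54 ± 0.33, without overlap, but it shares exonic sequence with PLXNB3 on the same strand and is uncertain. RBM23, a relative of RBM39, rose by 0.73 ± 0.06, and the kinase genes RET and GAK, whose proteins alectinib also binds, fell by 0.78 ± 0.17 and 0.55 ± 0.08.

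Several of the steepest rises were in genes that DMSO cells hardly expressed. HSPA6 (ENSG00000173110, chromosome 1, 161524540 to 161526910, plus strand), a strictly stress-inducible HSP70 chaperone, had 0.209, 0.0719, 0.267 and 0.0696 CPM in DMSO and 34.1, 63.8, 38.1 and 81.7 CPM in the combination. The groups lay far apart, and combination replicates 2 and 4 were above replicates 1 and 3, and HSPA6 rose by 8.44 ± 0.34 (adjusted p = 1.71e-15). NUPR1, a stress-induced chromatin protein, had no count in DMSO replicates 1 and 3, 0.0719 and 0.139 CPM in replicates 2 and 4, and 10.4, 15.8, 11.6 and 16.3 CPM in the combination. GDF15 (ENSG00000130513, chromosome 19, 18374731 to 18389176, plus strand), a secreted stress cytokine, went from 0.139, 0.198, 0.605 and 0.383 CPM to 19.5, 32.0, 28.2 and 29.3 CPM. Neither gene had overlapping groups, and their log2 changes were 7.94 ± 0.41 and 6.35 ± 0.29. FOSL1, a partner of JUN in the AP-1 transcription factor, rose by 5.70 ± 0.29, from 0.260 ± 0.092 to 13.6 ± 4.51 CPM. Among protein-coding genes with a mean of at least 5 CPM and no overlap of the groups, the 12 with the largest rises also included CYP4F3, a fatty acid hydroxylase (6.33 ± 0.17), OVGP1, the oviductal glycoprotein (5.01 ± 0.15), IFI35, an interferon-induced protein (4.92 ± 0.24), DCAF4L1 (4.78 ± 0.14) and CCDC168 (4.57 ± 0.15, whose exons overlap a gene on the other strand). In all, 13 genes, 12 of them protein-coding, were under 0.5 CPM in DMSO and at 5 CPM or more in the combination, and no gene did the reverse.

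Some of these genes lie just downstream of another gene on the same strand. RAB44 (ENSG00000255587, chromosome 6, 36697810 to 36733183), a RAB-family GTPase, begins 10.5 kb after the end of CDKN1A, and rose by 7.29 ± 0.24, from 0.136 ± 0.074 to 21.8 ± 3.73 CPM. ARHGAP30 (ENSG00000186517, chromosome 1, 161046946 to 161069970), which encodes a GTPase-activating protein, begins 1.02 kb after the end of NECTIN4 (ENSG00000143217, 161070995 to 161089599), a cell adhesion molecule. They rose by 6.52 ± 0.28 and 4.76 ± 0.18, from 0.1499 ± 0.021 to 13.9 ± 4.10 CPM and from 1.18 ± 0.22 to 31.8 ± 5.73 CPM. GDF15 begins 4.78 kb after PGPEP1, which rose by 2.03 ± 0.19. Other upstream genes did not show such rises. HSPA6 begins 526 bases after FCGR2A, which failed the expression filter. IFI35 begins 3765 bases after RPL27, which rose by only 0.38 ± 0.07, and CCDC168 6.92 kb after TEX30, which did not pass (-0.17 ± 0.08). The noncoding gene AL683813.1 begins 206 bases after RBMX, and the pair moved apart: AL683813.1 rose by 4.07 ± 0.15 and RBMX, which encodes an hnRNP protein, fell by 0.87 ± 0.05. Such neighbours were not confined to genes that rose. Among the largest falls described below, SGK494 begins 239 bases after KIAA0100 (-0.89). MYO1C begins 1.76 kb after INPP5K, which did not pass (-0.04). Gene-level counts do not show where the transcripts of any of these genes started.

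**Figure D2:**
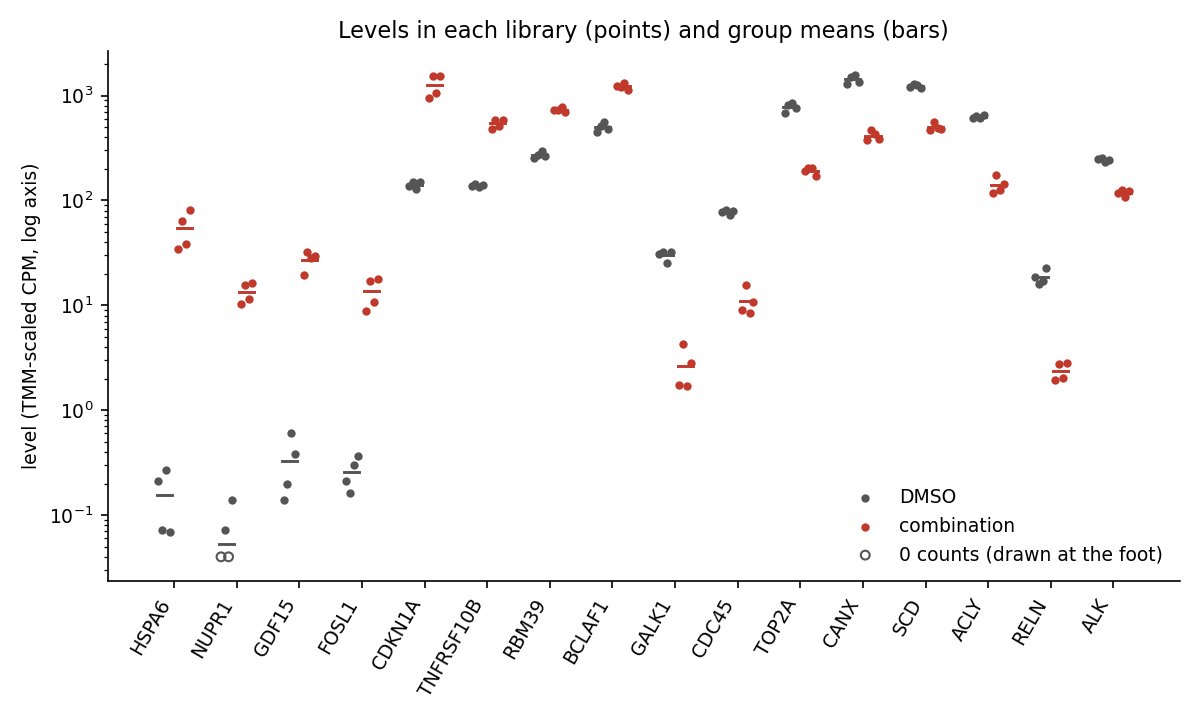
Level in TMM-scaled CPM (vertical log axis) of 16 genes in each DMSO library (grey) and each combination library (red); points are libraries, bars are group means, and 2 DMSO libraries with no NUPR1 count are drawn as open circles at the foot. The groups do not overlap for any of these genes, and HSPA6 runs from 0.0696 to 0.267 CPM in DMSO and from 34.1 to 81.7 CPM in the combination.

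The p53 target genes rose as a group. All 33 tested members of the list were higher, 28 of them at least 2-fold, with a median log2 change of 1.69. CDKN1A (ENSG00000124762, chromosome 6, 36676460 to 36687339, plus strand), the p21 inhibitor of cyclin-dependent kinases, gained more CPM than any other gene called at least 2-fold higher. It was at 137, 149, 130 and 151 CPM in DMSO and at 945, 1528, 1052 and 1539 CPM in the combination. The treated libraries were all more than 6-fold above the DMSO libraries, and the log2 change was 3.16 ± 0.13 (adjusted p = 1.43e-15). Replicates 2 and 4 were above 1 and 3 in the combination and also in DMSO. MDM2, the ubiquitin ligase that restrains p53, had 101, 100, 113 and 102 CPM in DMSO and 504, 483, 510 and 462 CPM in the combination (2.24 ± 0.07). For MDM2, combination replicates 1 and 3 were the higher pair, by a smaller margin. Both arms of the programme were represented. Among arrest and repair genes, BTG2, an antiproliferative factor, rose by 3.08 ± 0.10, PLK2 by 2.75 ± 0.10, GADD45A by 2.43 ± 0.10 and RRM2B, a ribonucleotide reductase subunit, by 1.84. Among death genes, BBC3, which encodes PUMA, was at 10.7, 10.2, 8.17 and 10.3 CPM in DMSO and at 51.8, 69.7, 51.0 and 82.7 CPM in the combination. These values did not overlap, and BBC3 rose by 2.69 ± 0.14. The death receptors FAS and TNFRSF10B rose by 2.24 ± 0.14 and 1.96 ± 0.07, and the nuclease AEN by 1.82 ± 0.09. The smallest rises in the list were those of XPC (0.19) and TP53I3 (0.36).

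Wider apoptosis lists were mixed. Of 15 tested BCL2 family genes, 6 rose and 5 fell (median 0.00), beside shares of 29.7% and 30.6% among all genes. The pro-death members BBC3, BIK (1.74 ± 0.38, at 0.506 ± 0.066 CPM in the combination), BAX (1.05 ± 0.10) and PMAIP1, which encodes NOXA (0.62 ± 0.07), rose, and so did the protective BCL2L1 (0.42 ± 0.09) and MCL1 (0.21 ± 0.06). BOK, HRK and BID, also pro-death, fell by 1.56, 0.87 and 0.59, as did BCL2 itself by 0.40. Of 19 tested death receptor and caspase genes, 12 rose and 2 fell (median 0.41). DIABLO, which encodes an antagonist of caspase inhibitors, has 2 identifiers with shared exons in the annotation, so its rise is uncertain.

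**Figure D3:**
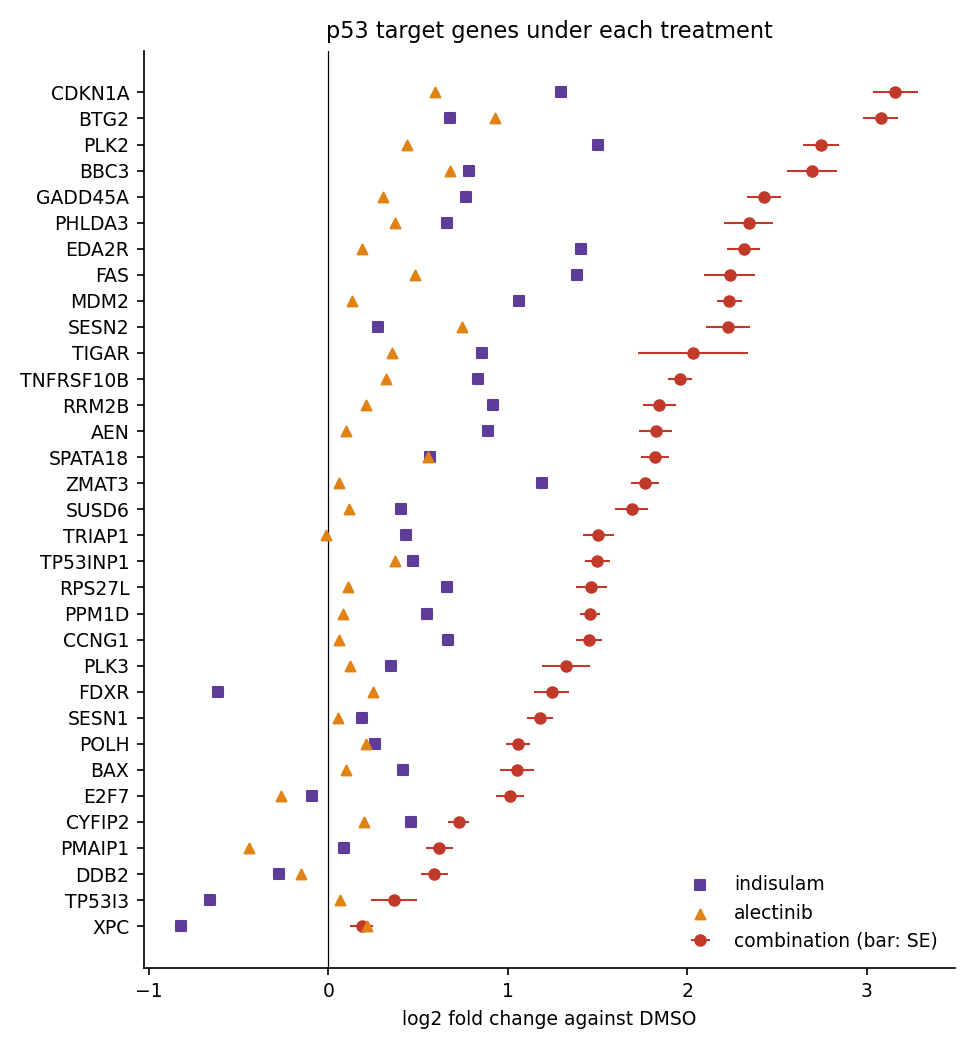
Log2 fold change against DMSO (horizontal axis) of the 33 tested p53 target genes in the combination (red circles, bars are the SE), indisulam alone (purple squares) and alectinib alone (orange triangles). Every combination value lies to the right of 0, from 0.19 for XPC to 3.16 for CDKN1A.

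The heat shock list rose in most of its members: 17 of 24 tested genes were higher and 1 was lower (median 0.55). Chaperones that cells make on demand led it. BAG3, a co-chaperone of HSP70, had 8.69, 10.4, 7.40 and 8.75 CPM in DMSO and 32.1, 52.6, 35.03 and 55.1 CPM in the combination. DNAJB1, an HSP40 protein, had 72.9, 82.7, 77.0 and 82.3 CPM and then 215, 333, 252 and 344 CPM. In both genes the groups were apart, with log2 changes of 2.31 ± 0.15 and 1.86 ± 0.11. Combination replicates 2 and 4 were the higher pair, as for HSPA6, and for BAG3 and DNAJB1 also in DMSO. HSPA1A and HSPA1B, near-identical HSP70 genes whose reads may be exchanged, rose by 2.60 ± 0.22 and 2.38 ± 0.15. The constitutive chaperones moved less: HSP90AA1 rose by 0.72, HSPA8 by 0.42, HSP90AB1 (0.12) and the mitochondrial HSPD1 (0.09) did not pass, and FKBP4, an HSP90 co-chaperone, fell by 0.99. The heat shock element, to which the factor HSF1 binds, was searched as GAA, any 2 bases, TTC, any 2 bases and GAA on both strands in the 250 bases before RefSeq gene starts (GRCh38.p14). It was found in 6 of 22 list members with a promoter entry (27.3%), in 0.557% of all 27305 genes with an entry and in 0.441% of all 35116 promoters. Of these 6 genes, 4 rose, beside 17 of 24 in the whole list, and HSP90AB1 and HSPD1 did not pass. BAG3, DNAJB1, HSPA1A and HSPA1B were not among the 6. The 3 stretches below show the letters in capitals in HSPA6 (chr1:161524454-161524513, plus strand), HSP90AA1 (chr14:102087085-102087144, minus strand) and CHORDC1 (chr11:90223062-90223121, minus strand), an HSP90 co-chaperone that rose by 0.29.
HSPA6: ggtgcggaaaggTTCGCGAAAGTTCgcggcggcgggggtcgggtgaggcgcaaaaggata
HSP90AA1: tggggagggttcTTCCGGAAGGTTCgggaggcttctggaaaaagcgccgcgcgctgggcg
CHORDC1: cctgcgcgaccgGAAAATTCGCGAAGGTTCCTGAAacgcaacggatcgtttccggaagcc
In CHORDC1 3 overlapping matches form 1 run, while HSPA6 and HSP90AA1 hold 1 match each in this stretch.

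Immediate early genes, which growth factor and stress signals switch on, were also higher: 18 of 27 tested members of the ERK and immediate early list rose and 3 fell (median 0.85). EGR1, a zinc finger factor, had 2.93, 2.93, 3.47 and 3.25 CPM in DMSO and 35.1, 56.5, 33.7 and 52.1 CPM in the combination. FOS had 0.488, 0.539, 0.516 and 0.818 CPM in DMSO and 8.44, 13.2, 6.26 and 9.88 CPM in the combination. The groups were separate for both, with log2 changes of 3.82 ± 0.23 and 3.99 ± 0.28. LIF, a cytokine, rose by 3.42 ± 0.16. The feedback inhibitors of ERK signalling DUSP6 and SPRY4 rose by 1.72 ± 0.13 and 1.86 ± 0.23 and the ERK-responsive factor ETV5 by 1.26 ± 0.15, whereas SPRY1, another inhibitor, fell by 1.53 and CCND1 by 0.29. MYC, at only 0.671 ± 0.242 CPM in the combination, did not pass (0.71 ± 0.32, adjusted p = 0.0571).

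The targets of ATF4, the factor of the integrated stress response, did not move one way: 11 of 37 rose and 17 fell (median -0.08). Among all genes 29.7% rose and 30.6% fell. ATF3, a stress-induced factor, had 11.7, 11.9, 12.1 and 12.3 CPM in DMSO and 41.2, 65.2, 53.5 and 65.1 CPM in the combination, without overlap (2.23 ± 0.12). SESN2, an inhibitor of mTORC1 that is also in the p53 list, rose by 2.23 ± 0.12, SLC3A2, the heavy chain of amino acid transporters, by 1.81 ± 0.14, and CHAC1 by 1.11 ± 0.16. The members that fell included enzymes of one-carbon and amino acid metabolism and tRNA synthetases, with SHMT2 at -1.79 ± 0.09, PCK2 at -1.65, MARS at -1.31 and AARS at -1.22. DDIT3, which encodes CHOP (0.25), and ASNS (0.13) did not pass. Among NRF2 targets 10 of 19 rose and 2 fell (median 0.19). HMOX1, heme oxygenase, rose by 3.51 ± 0.37 from 0.644 ± 0.1095 to 7.37 ± 3.13 CPM. Of 26 lysosome and autophagy genes 9 rose and 8 fell (median 0.04). The counts of the lysosome and autophagy list were near the shares among all genes. SQSTM1, the autophagy receptor p62, rose by 1.69 ± 0.14.

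Genes of the splicing machinery, to which RBM39 belongs, were mostly higher. Of 50 core spliceosome genes 36 rose and 6 fell (median 0.59). PRPF3, a U4/U6 snRNP protein, had 89.9, 90.6, 94.1 and 91.1 CPM in DMSO and 349, 356, 407 and 357 CPM in the combination. The spread within each group was small beside the gap, and the log2 change was 2.00 ± 0.06 (adjusted p = 2.89e-17). PRPF6, a U5 protein, rose by 1.19 ± 0.07, BUD31 by 1.02 ± 0.08 and U2AF2, which reads the polypyrimidine tract, by 0.91 ± 0.09. EFTUD2, the GTPase of the U5 snRNP, was the exception in size: it had 395, 406, 404 and 429 CPM in DMSO and 153, 177, 157 and 166 CPM in the combination, and fell by 1.32 ± 0.06. Of 14 SR protein genes 11 rose and 0 fell (median 0.48), led by SRSF8 (1.16 ± 0.07) and SRSF4 (0.76 ± 0.05). The 25 hnRNP genes split into 9 higher and 9 lower (median 0.06), beside shares of 29.7% and 30.6% among all genes. Under upper-quartile scaling 14 were higher and 9 lower. PTBP2, the neuronal polypyrimidine tract protein, rose from 69.6, 73.6, 76.9 and 67.0 CPM to 239, 210, 239 and 200 CPM (1.63 ± 0.07), while HNRNPUL2 fell by 1.53 ± 0.07 and HNRNPD by 0.80 ± 0.05. BCLAF1 and SON, splicing-associated proteins rich in arginine and serine, were among the 6 genes that gained most CPM of those called at least 2-fold higher, by 1.30 ± 0.07 from 500 ± 44.8 to 1233 ± 78.1 CPM and by 1.00 ± 0.05 from 451 ± 21.9 to 904 ± 10.0 CPM. SON overlaps exons of other genes on the opposite strand.

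Neighbouring steps of mRNA processing were examined as well. Of 11 minor spliceosome genes 6 rose and 1 fell (median 0.34), with ZRSR2 at 0.96 ± 0.09. Of 16 genes of nonsense-mediated decay and the exon junction complex 10 rose and 4 fell (median 0.49): CASC3 and RBM8A, both junction proteins, rose by 0.66 and 0.68, the NMD kinase SMG1 fell by 0.22, and UPF1, the central helicase (-0.14), did not pass. Of 18 cleavage and polyadenylation genes 6 rose and 5 fell (median 0.11). These counts were near 29.7% and 30.6% among all genes. Under upper-quartile scaling 11 were higher and 3 lower. PAPOLA, the poly(A) polymerase, fell by 0.80 ± 0.07. Of 19 transcriptional kinase and elongation genes 8 rose and 7 fell (median 0.11), beside 29.7% and 30.6% among all genes. CCNT1, the cyclin of P-TEFb, rose by 1.22 ± 0.06 and its kinase CDK9 fell by 0.95 ± 0.11. SUPT6H, an elongation factor, fell by 1.39 ± 0.08.

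Cytosolic ribosomal protein genes were higher almost without exception, 73 of 78 with 0 lower (median 0.60). Their summed level was 53835, 56734, 55778 and 55005 CPM in DMSO and 72784, 80713, 83524 and 82308 CPM in the combination, so the groups did not overlap. RPS23 rose by 1.31 ± 0.06, RPL22 by 1.29 ± 0.07 and RPS14 by 0.82 ± 0.06; pseudogenes of this family may share reads with them. In contrast, of 38 genes of ribosome biogenesis, the nucleolar factors that assemble these proteins with rRNA, 7 rose and 25 fell (median -0.43). NOLC1 fell by 1.35 ± 0.06, WDR12 by 1.12 ± 0.07 and TSR1 by 1.10 ± 0.07, whereas NOP2, an rRNA methyltransferase counted at 3.80 ± 0.51 CPM in the combination, rose by 1.36 ± 0.20. Proteasome genes were higher in 22 of 32 and lower in 4 (median 0.37), with PSMD12 at 1.09 ± 0.07, PSMB2 at 0.88 ± 0.06 and PSMC5 at -1.39 ± 0.09. For the mitochondrially encoded genes 8 of 13 rose and 0 fell (median 0.36), with MT-CYB at 0.64 ± 0.10 and MT-CO1 at 0.42 ± 0.06. The 72 nuclear genes of oxidative phosphorylation split into 33 higher and 21 lower (median 0.16): UQCRC1, a core subunit of complex III, fell by 1.81 ± 0.10, ATP5MC1, the c subunit of ATP synthase, by 1.60 ± 0.09 and SDHA, the flavoprotein of complex II, by 1.44 ± 0.08, whereas NDUFA9 of complex I rose by 1.54 ± 0.09.

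Genes of lipid synthesis and of the ER were mostly lower. Of 26 cholesterol pathway genes 22 fell and 0 rose (median -0.79). LSS, which closes the sterol ring, had 222, 214, 188 and 210 CPM in DMSO and 59.5, 75.9, 51.1 and 70.1 CPM in the combination, with no overlap (-1.70 ± 0.10). TM7SF2, a sterol reductase, fell by 2.65 ± 0.17, HMGCS1, which makes HMG-CoA, by 1.34 ± 0.07 and INSIG1, the ER anchor of SREBP processing, by 1.35 ± 0.08. Of 14 fatty acid genes 12 fell and 2 rose (median -0.91). ACLY, which makes cytosolic acetyl-CoA, had 607, 644, 613 and 651 CPM in DMSO and 118, 175, 126 and 142 CPM in the combination. SCD, the stearoyl-CoA desaturase, had 1213, 1300, 1261 and 1183 CPM and then 466, 556, 493 and 477 CPM. Both were clearly separated, with changes of -2.16 ± 0.09 and -1.31 ± 0.06, and both were among the 6 genes that lost most CPM of those called at least 2-fold lower. ACACA fell by 1.499 ± 0.060 and SREBF1, the master regulator of this pathway, by 1.22 ± 0.11; ME1, malic enzyme, rose by 0.45.

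Of 25 genes of ER chaperones and the unfolded protein response 20 fell and 4 rose (median -0.72). CANX (ENSG00000127022, chromosome 5, 179678628 to 179730925, plus strand), the lectin chaperone calnexin, had the largest loss of level of any gene called at least 2-fold lower, from 1298, 1496, 1578 and 1361 CPM in DMSO to 377, 466, 430 and 389 CPM in the combination (-1.79 ± 0.07, adjusted p = 2.25e-15). HYOU1, an ER chaperone of the HSP110 class, went from 543, 612, 571 and 608 CPM to 123, 181, 138 and 164 CPM (-1.95 ± 0.09). No library of either gene crossed into the other group. HSPA5, which encodes BiP, fell by 0.78 ± 0.08, CALR, calreticulin, by 1.03 ± 0.09, and the sensor ATF6 by 0.96 ± 0.07, while the sensor ERN1 rose by 0.27 and XBP1 (-0.11) did not pass. The ER stress response element was searched as CCAAT, any 9 bases and CCACG on both strands in the same 250 bases. It was in 7 of 23 list members with an entry (30.4%), in 0.0916% of all genes with an entry and in 0.0740% of all promoters. Of these 7 genes 6 fell, XBP1 being the other. In the whole list 20 of 25 fell. The stretches below show it in capitals for CANX (chr5:179698766-179698825, plus strand), CALR (chr19:12938372-12938431, plus strand), HSPA5 (chr9:125241362-125241421, minus strand) and CRELD2 (chr22:49918542-49918601, plus strand), an ER folding factor that fell by 1.24 ± 0.11.
CANX: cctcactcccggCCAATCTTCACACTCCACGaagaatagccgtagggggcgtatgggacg
CALR: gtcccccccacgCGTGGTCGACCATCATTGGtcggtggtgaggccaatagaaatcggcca
HSPA5: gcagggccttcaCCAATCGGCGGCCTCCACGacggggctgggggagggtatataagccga
CRELD2: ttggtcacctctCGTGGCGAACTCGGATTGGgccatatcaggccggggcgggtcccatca
In CALR and CRELD2 the element reads on the opposite strand.

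DNA replication genes fell together: 42 of 50 were lower and 4 higher, 24 of them at least 2-fold lower (median -0.88). CDC45 (ENSG00000093009, chromosome 22, 19479459 to 19520612, plus strand), a subunit of the replicative helicase, had 77.3, 80.9, 72.6 and 79.9 CPM in DMSO and 9.09, 15.8, 8.40 and 10.8 CPM in the combination. POLA1, the catalytic subunit of the priming polymerase, had 96.2, 113, 124 and 110 CPM and then 23.8, 27.3, 22.5 and 24.0 CPM. Both were far outside the spread of either group, at -2.82 ± 0.14 and -2.19 ± 0.08. RRM2, the regulated subunit of ribonucleotide reductase, fell by 1.95 ± 0.07 and DTL, a substrate receptor of the CUL4 ligase, by 1.87 ± 0.08. ORC6, an origin recognition subunit, rose by 0.76 ± 0.06, as did GMNN, which blocks relicensing, by 0.25, while MCM7 (0.01) did not pass. The letters TTTCCCGC and TTTGGCGC, forms of the site of E2F factors, were searched on both strands. They were in 14 of 43 members with an entry (32.6%), in 2.36% of all genes with an entry and in 1.93% of all promoters. Of the 14 genes 11 fell, 1 rose and 2 did not pass, beside 42 of 50 lower in the whole list. Whether the searched sites bear on the changes was not tested. They are shown in capitals for POLA1 (chrX:24693769-24693828, plus strand), DUT (chr15:48332137-48332196, plus strand), the dUTPase, which fell by 0.54, and DTL (chr1:212035688-212035747, plus strand).
POLA1: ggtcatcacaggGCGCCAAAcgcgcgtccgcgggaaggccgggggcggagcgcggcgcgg
DUT: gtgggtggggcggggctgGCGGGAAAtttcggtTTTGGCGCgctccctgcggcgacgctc
DTL: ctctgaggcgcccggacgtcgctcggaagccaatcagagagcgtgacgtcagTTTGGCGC
DUT holds both forms, and in DTL the match ends at the gene start.

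Other cell cycle genes moved with less unity. Of 25 G1 and E2F genes 17 fell and 6 rose (median -0.41): CDK4 had 184, 193, 196 and 204 CPM in DMSO and 47.7, 77.5, 54.0 and 67.9 CPM in the combination, without overlap (-1.65 ± 0.11), CDK2 fell by 1.02 ± 0.07, and E2F6, a repressor, rose by 0.84 ± 0.06. Of 40 homologous recombination and Fanconi genes 29 fell and 4 rose (median -0.50), with FANCI at -1.77 ± 0.07 and FANCD2 at -1.34 ± 0.07. PRKDC, the catalytic subunit of DNA-PK in end joining, fell from 1122 ± 67.1 to 390 ± 16.7 CPM (-1.53 ± 0.06). Of 50 mitosis genes 31 fell and 7 rose (median -0.30). TOP2A, which untangles chromosomes, fell from 676, 819, 844 and 755 CPM to 189, 204, 206 and 170 CPM (-2.01 ± 0.07), and MYBL2, a factor of the G2 genes, by 2.02 ± 0.10, while CCNB1, mitotic cyclin B1, rose by 0.72 ± 0.06 and CDK1 (-0.09) did not pass.

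Genes of neuroblastoma identity were lower. Of 24 adrenergic transcription factors, which define the sympathetic state of these tumours, 18 fell and 2 rose (median -0.51). MYCN (ENSG00000134323, chromosome 2, 15940564 to 15947007, plus strand), the oncogene amplified in this line, had 2455, 2521, 2298 and 2500 CPM in DMSO and 1226, 1435, 1221 and 1296 CPM in the combination. The values did not overlap, and MYCN fell by 0.92 ± 0.06 (adjusted p = 1.02e-11); an antisense gene overlaps its exons. MEIS1 fell by 1.03 ± 0.07 and PHOX2A by 0.76 ± 0.09, whereas GATA3 (0.02 ± 0.06) did not pass. Of the 10 neuroblastoma markers, some of which are also in the adrenergic list, 7 fell and 0 rose (median -0.55). Of 25 catecholamine and secretory granule genes 13 fell and 5 rose (median -0.51). CHGA, chromogranin A, fell from 403, 381, 321 and 346 CPM to 133, 182, 124 and 173 CPM (-1.25 ± 0.11) and DDC, which makes dopamine, by 2.08 ± 0.10, but TH, the first enzyme of that pathway (-0.22 ± 0.19), did not pass and SCG5 rose by 2.18 ± 0.17. Of 25 neurite genes 20 fell and 1 rose (median -0.44), led by L1CAM, a neuronal adhesion molecule (-1.62 ± 0.08), and KIF5A, an axonal kinesin (-1.03 ± 0.07). Mesenchymal markers did not rise as a set: of 14 tested, 2 rose and 6 fell (median -0.17), among them NOTCH3 (-2.74 ± 0.19), CD44 (-1.12 ± 0.10) and VIM (-0.59 ± 0.07). Of 22 glycolysis genes 16 fell and 3 rose (median -0.45), with PFKM at -1.44 ± 0.07 and PDHA1 at -1.32 ± 0.07.

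Among protein-coding genes with a mean of at least 5 CPM and no overlap of the groups, the 12 with the largest falls included CDC45 and several metabolic enzymes. GALK1 (ENSG00000108479, chromosome 17, 75751594 to 75765711, minus strand), galactokinase, had 30.8, 32.4, 25.2 and 32.4 CPM in DMSO and 1.74, 4.29, 1.70 and 2.79 CPM in the combination, a change of -3.52 ± 0.20 with no overlap. SLC25A10, the mitochondrial dicarboxylate carrier, fell by 3.31 ± 0.23, MIPEP, a mitochondrial peptidase, by 2.91 ± 0.13 and LAP3, a leucine aminopeptidase, by 2.87 ± 0.14. MYO1C, a class I myosin, had 44.1, 42.8, 40.5 and 44.5 CPM in DMSO and 3.74, 7.31, 3.86 and 3.74 CPM in the combination (-3.21 ± 0.15). RELN, the extracellular guide of migrating neurons, fell by 2.96 ± 0.23, HFM1, a meiotic helicase, by 3.26 ± 0.15, the choline transporter gene SLC44A2 by 2.80 ± 0.16 and the synaptic scaffold gene DLGAP2 by 3.09 ± 0.16. C4orf50 fell by 3.42 ± 0.15 and SGK494 by 2.77 ± 0.15. PRRC2A fell by 1.32 ± 0.08 from a high level of 885 ± 61.4 CPM. The exons of C4orf50, SLC25A10 and SGK494 overlap other genes on the same strand, and those of HFM1, MIPEP, DLGAP2 and SGK494 overlap genes on the opposite strand, so their values are uncertain. Among noncoding genes and pseudogenes, AL023806.3, AL359922.2 and PKMP3 rose by 3.56, 3.43 and 3.33, and DHFRP1, AP001972.5, FAM86GP and MAFG-DT fell by 2.60, 2.22, 2.15 and 2.09. DHFRP1 and PKMP3, as pseudogenes, may take reads from their parent genes.

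**Figure D4:**
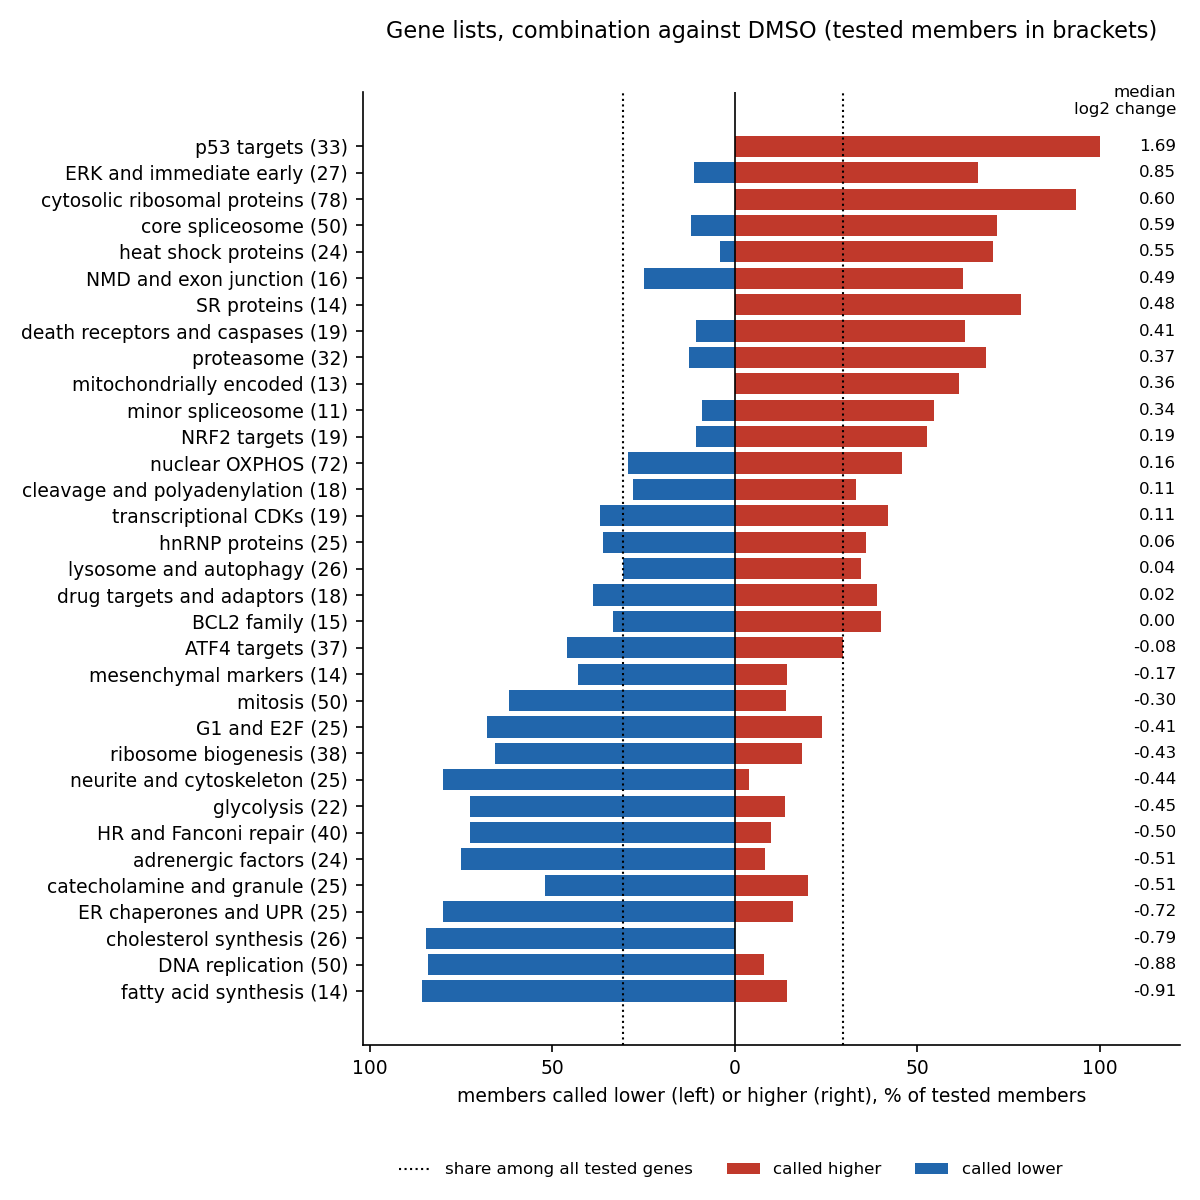
Share of the tested members of 33 gene lists that were called higher (red, right) or lower (blue, left) in the combination against DMSO, in percent, with the number of tested members in brackets and the median log2 change at the right. The dotted lines mark the shares over all tested genes, 29.7% and 30.6%; p53 targets (33 of 33 higher) lie at the top and fatty acid synthesis (12 of 14 lower) at the bottom by median.

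For the lists with 0 calls in one direction named above (p53 targets, SR proteins, ribosomal proteins, mitochondrially encoded genes, cholesterol genes and neuroblastoma markers), that count was also 0 at an unadjusted p under 0.05 in edgeR and at an adjusted p under 0.05 in DESeq2 and limma-voom. It did not stay 0 in every setting: 1 cholesterol gene was higher under upper-quartile scaling and without combination replicate 1, and 2 neuroblastoma markers were higher under upper-quartile scaling and 1 with at least 1 CPM in at least 4 libraries. Upper-quartile scaling, which moves the median of all genes upwards, also gave 12 mitosis genes, 5 adrenergic factors, 3 neurite genes and 5 mesenchymal markers as higher, and 2 genes of nonsense-mediated decay and the exon junction complex as lower.

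The balance of rises and falls differed with the type and structure of the gene. Protein-coding genes were more often lower (39.2% of 14728) than higher (29.98%), while genes of all other types were more often higher (29.1% of 7705) than lower (14.2%). Among the other types the medians were 0.66 for snRNA, 0.61 for misc_RNA and 0.57 for snoRNA genes, whose tested members had median levels of 0.195, 0.218 and 0.283 CPM in a poly(A)-selected library. Within protein-coding genes, the share that fell grew with the number of exons of the transcript with most exons. It was 20.9% of 331 genes with 1 exon, 25.7% of 2261 with 2 to 4, 31.3% of 4870 with 5 to 9, 45.3% of 4852 with 10 to 19 and 58.3% of 2401 with 20 or more. The share that rose went the other way above 4 exons, from 38.3% in genes with 2 to 4 exons to 36.4%, 26.1% and 15.99%. The medians were 0.15, 0.13, 0.04, -0.19 and -0.41.

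Genes with 20 or more exons were also lower more often than genes with 2 to 4 exons within each class of level, and within each class of exonic length that held both. Among genes with a mean of 10 to under 100 CPM, 28.95% of 988 genes with 2 to 4 exons and 66.4% of 1169 genes with 20 or more were lower. Among genes with 4 to under 8 kb of exonic sequence these shares were 27.9% of 634 and 58.4% of 970. In each library, the median of log2(CPM + 0.5) minus its DMSO mean over the genes with 20 or more exons was set against that over genes with 2 to 4 exons. The difference was -0.01, -0.01, 0.04 and -0.01 in DMSO replicates 1 to 4 and -0.41, -0.49, -0.47 and -0.51 in the combination. It was between -0.28 and -0.18 in the indisulam libraries and between -0.08 and 0.05 in the alectinib libraries, so the combination libraries were lower than all others. By span on the genome, the lower share was 31.2% of genes under 10 kb and 52.0% of those of 500 kb or more. The exon classes were formed after earlier results of these data were known, and genes are not independent replicates, so these shares are given without a test. The gene lists above were set beside all tested genes, not beside genes of like exon number. How far exon number bears on the list counts was not tested.

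**Figure D5:**
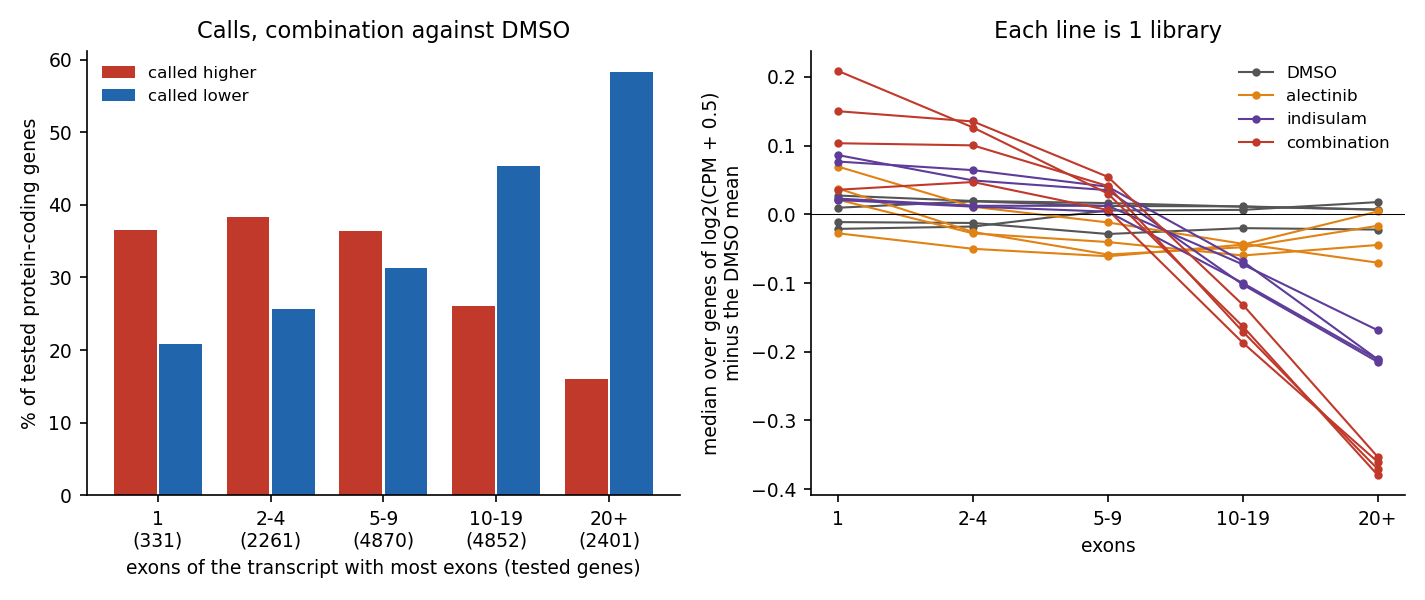
Left, percent of tested protein-coding genes called higher (red) and lower (blue) in the combination, by number of exons (horizontal axis, tested genes in brackets); the lower share climbs from 20.9% to 58.3%. Right, the median over genes of log2(CPM + 0.5) minus the DMSO mean for the same exon classes, 1 line per library; the 4 combination lines reach -0.38 to -0.35 at 20 or more exons.

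The combination was also compared with each drug alone, which asks what the second drug added. Against indisulam, 4249 genes were higher (18.9%) and 4502 lower (20.1%), and against alectinib 5939 (26.5%) and 6512 (29.0%). All 33 p53 targets were higher in the combination than in indisulam (median 1.02), and 31 were higher than in alectinib (median 1.48). For CDKN1A the means were 348 CPM in indisulam and 214 in alectinib beside 1266 in the combination. HSPA6 averaged 0.235 CPM with indisulam, 18.6 CPM with alectinib and 54.4 CPM with both, which exceeded alectinib by 1.55 ± 0.20 (SE) on the log2 scale (adjusted p = 6.91e-07). MYCN averaged 2438 CPM with indisulam, 1793 CPM with alectinib and 1294 CPM with both, and the combination was lower than each (-0.91 and -0.47, adjusted p = 1.59e-10 and 7.81e-07). The 24 adrenergic factors were lower in 19 cases against indisulam and in 17 against alectinib. Ribosomal protein genes were higher in 71 and 76 of 78. In the ER list the combination was lower than indisulam in 11 and higher in 6 of 25 genes, and lower than alectinib in 13 and higher in 3.

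On the log2 scale, 1537 genes were above (6.85%) and 1488 below (6.63%) the sum of the changes of the single drugs. Among the p53 targets 30 of 33 were above it, with CDKN1A 1.27 above (adjusted p = 3.23e-05), and 60 of 78 ribosomal protein genes and 12 of 24 adrenergic factors departed from it, the former upwards and the latter downwards. In the ER list 15 of 25 genes were above the sum and 1 below, and in the proteasome list 23 of 32 were above and 0 below. RBM39 (0.04, adjusted p = 0.808), PRPF3 (0.01) and HSPA6 (0.96, adjusted p = 0.392) did not pass. These comparisons share the combination libraries and are not independent of the comparison with DMSO.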

How the data were processed

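Poly(A)-selected RNA was sequenced as 150 bp read pairs, per the labels' protocols. The deposited values are raw counts per gene for 16 libraries; the submitters' processing notes name FastQC 0.11.9, Trimmomatic 0.39, HISAT2 2.2.1, featureCounts 2.0.1 and GRCh38, and the strand setting is not given in the sources used here. Overlapping genes, antisense genes and near-identical copies are therefore uncertain: of 207 genes named by rule, 101 share exonic sequence with another gene. The 58735 genes of the table have the positions of GENCODE 29, and 27 gene names that a spreadsheet had turned into dates were restored by identifier.

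From the counts, genes were filtered with filterByExpr by treatment (22433 kept; the others held at most 0.0654% of a library's counts), scaled by TMM and tested with edgeR 4.0.16 (R 4.3.3) over all 16 libraries, with 12 residual degrees of freedom and a prior count of 0.125. An adjusted p under 0.05 (Benjamini-Hochberg) is a call. Errors of fold changes are approximate SE, derived as the absolute log2 change divided by the square root of the test's F value. Errors of CPM are SD over 4 libraries. The main test was tried on simulated counts in which far fewer genes changed than were called here. The scaling was therefore not tested under changes this widespread. Alternatives were RLE and upper-quartile scaling, other filters, DESeq2 1.42.0, limma-voom 3.58.1, a replicate block, the compared libraries alone, no mitochondrially encoded genes, and each library left out.

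The comparison and the gene lists were chosen with earlier results of these data known. Genes were named by size of change (the 12 largest each way among protein-coding genes and 4 among other types, called, at a mean of at least 5 CPM over the 8 libraries and with no overlap of the groups, and the 6 largest gains and losses of CPM among genes called at least 2-fold), all drug targets, and the 4 lowest p-values of each other list. Further list members were named after their values were seen, and a few genes are not reported here.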

Additional observations from a re-analysis of the deposited data

Results flagged for a closer look

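In 32 of 416 groups of 4 libraries (7.69%), counted over the reported genes named by rule and 6 measures of each library such as depth and mitochondrial share, 1 library stood apart from the other 3 by Dixon's ratio; chance flags about 1 in 20 groups. No explanation was tested.

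DMSO replicate 3 stood apart most often. It was above the others for CYP4F3 (0.338 CPM against 0.209 to 0.216), MDM2 (113 against 100.3 to 102), TIGAR (0.570 against 0.306 to 0.331), RPS23 (181 against 170 to 171) and OSGIN1 (0.0890, where the other 3 had no count). It was below them for DDA1 (55.6 CPM against 61.5 to 61.9), RET (5.00 against 6.20 to 6.42), PHLDA3 (26.8 against 37.0 to 39.1), HSPA1B (18.6 against 20.5 to 20.9) and PHOX2A (397 against 472 to 482). Its mitochondrial share was 5.77% against 5.23% to 5.28%.

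DMSO replicate 1 was above the others for DLGAP2 (37.6 CPM against 30.1 to 31.2), ENO2 (161 against 143 to 146) and PDGFRB (26.9 against 23.7 to 23.7), and below them for CSTF2 (33.7 against 40.2 to 41.5) and DNAJB11 (99.96 against 112 to 113). DMSO replicate 2 was below for LUM (3.09 CPM against 3.61 to 3.71), and DMSO replicate 4 was above for FOS (0.818 against 0.488 to 0.539).

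Combination replicate 2 was above the others for MYO1C (7.31 CPM against 3.74 to 3.86), HNRNPD (241 against 222 to 224), HMGCS1 (164 against 143 to 146), CCNA2 (66.7 against 57.0 to 58.5), DDC (13.1 against 9.25 to 9.63) and MT-CO1 (18870 against 17400 to 17630). Combination replicate 1 was above for DCAF4L1 (29.6 CPM against 25.8 to 26.4) and below for SMG8 (95.1 against 118 to 120) and PLK2 (46.1 against 52.2 to 52.9). Combination replicate 3 was above for PRPF3 (407 CPM against 349 to 357) and RPL22 (213 against 186 to 189). Combination replicate 4 was above for ZRSR2 (13.3 CPM against 12.1 to 12.2) and OSGIN1 (0.524 against 0.193 to 0.248), and its mitochondrial share was 6.41% against 6.66% to 6.70%.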

How the results depend on the processing

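The counts of calls and the mitochondrial share were 11 results, recomputed in 193 pairs of result and setting; 192 stayed within 1.5 times the reported count or on the same side of the test. The exception was the number of genes at least 2-fold higher, 1413 with at least 1 CPM in at least 4 libraries, where 15761 genes were tested. Leaving out 1 library in turn gave 6321 to 6659 genes higher and 6501 to 6776 lower than DMSO, and a mitochondrial difference of 1.18 to 1.36 percentage points. DESeq2 called 7019 higher and 6759 lower, and limma-voom 6598 and 6890. Upper-quartile scaling moved the median of all genes from 0.01 to 0.13 and the calls to 8027 higher and 5776 lower, so changes near that size depend on the scaling. The replicate block gave 6725 higher and 7013 lower than DMSO, and 1821 and 1741 for the departure from the sum of the single drugs. Whether equal numbers mark a pairing is not given by the labels. The deviations of DMSO and combination libraries of the same number correlated at 0.11, 0.04, 0.11 and 0.06, not all above 0.1. Combination replicates 1, 3 and 4 correlated best with the DMSO library of their own number and replicate 2 with DMSO replicate 4. That is a hint from the data and not from the design. In DMSO, indisulam and the combination, replicates 2 and 4 lay below 1 and 3 on the third principal component (6.0% of the variance). They also had the higher shares of counts from protein-coding genes in these groups, and alectinib showed neither split. The source of this split was not tested. Of 3503 pairs for the 207 genes named by rule, 3484 kept their direction and side of the threshold and 0 reversed; 2 genes, among them VWF, lost their call in some settings, and COL3A1, CLK2 and SRPK2 gained one. Small list counts moved most: ER genes higher went from 4 to 2 without DMSO replicate 1 or combination replicate 3, repair genes higher from 4 to 2 without DMSO replicates 1 or 4 or combination replicates 1 or 3, and death receptor and caspase genes lower from 2 to 4 under the replicate block and without combination replicate 1. Adrenergic factors higher went from 2 to 4 without DMSO replicate 3, and to 1 without each combination replicate in turn and without DMSO replicates 1 or 4. Genes under about 1 CPM rest on few counts, and their fold changes are the least certain.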
